A study of Mus musculus with 10 samples.

Results

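The 10 genes studied here carry or restrain the death signal downstream of the TNF receptor, and their RNA was compared between hepatocytes that had lost Nrf2, the p65 subunit of NF-κB, or both. They are the receptors Tnfrsf1a and Fas, the kinases Ripk1 and Ripk3, the protease gene Casp8 with its inhibitor Cflar, the survival genes Bcl2l1 and Mcl1, and the death genes Bax and Bcl2l11. All 10 symbols matched exactly 1 of the 21939 gene identifiers in the deposited table, and all 10 were among the 13641 genes that passed the filter on low counts. The genes were picked by name for their known roles, by a rule that used no measured value but with earlier results of these data known.

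RNA was sequenced from hepatocytes of 10 male mice, with 1 library per mouse: 3 control, 2 Nrf2 KO, 2 p65 KO, and 3 DKO libraries. Control mice were wild-type C57BL/6J, Nrf2 KO and p65 KO mice carried floxed alleles of 1 of the genes, and DKO mice carried floxed alleles of both, all on the C57BL/6J background and 8 to 9 weeks old. Every mouse, controls included, received AAV8Cre, a viral vector with Cre recombinase under the hepatocyte-selective promoter of thyroxine-binding globulin, once into the peritoneum. Hepatocytes were isolated 12 days later by Liberase perfusion, slow centrifugation, and a Percoll step, which enriches hepatocytes without excluding every other liver cell. No toxin or TNF was given before the isolation. Values below are normalized counts, which are the estimated counts per gene scaled to a common library size, unless another scale is named.

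TNF is a macrophage cytokine with opposite effects on a cell. When it binds Tnfrsf1a, the adaptor proteins and Ripk1 assemble a complex that activates NF-κB, and NF-κB in turn switches on genes for survival proteins, among them the caspase-8 inhibitor cFLIP. When this arm fails, Ripk1 can recruit caspase-8 and drive apoptosis, or engage Ripk3 and Mlkl and drive necroptosis. In hepatocytes caspase-8 depends on the mitochondrial route, in which the BH3-only protein Bid activates Bax and Bak, and Bcl-xL, encoded by Bcl2l1, and Mcl-1 hold these pore formers in check. Hepatocytes without NF-κB activity are known to be sensitive to TNF, and Nrf2, the main activator of antioxidant genes, protects the same cells from oxidative damage. The comparisons asked whether the RNA levels of the death machinery differed when 1 or both factors had been deleted.

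The labels were checked first. Nfe2l2, which encodes Nrf2, was higher and not lower in the libraries labelled Nrf2 KO (4739 and 5005, against 1990 to 2318 in control) and in those labelled DKO (3434 to 5240). Rela, which encodes p65, was at 1182 and 1209 in the libraries labelled p65 KO against 1221 to 1276 in control. In the libraries labelled DKO it was at 1034.4 to 1488.5, on both sides of control. The totals cover all exons of a gene, so that the loss of the floxed part cannot be read from them. Genes controlled by these factors were therefore examined. Gstm1, a glutathione transferase gene and Nrf2 target, was at 16030 and 11566 in Nrf2 KO and 9477 to 13929 in DKO libraries against 95273 to 116090 in control, and p65 KO, at 68984 and 62011, was also below control. Nqo1, a second Nrf2 target, was at 84.0 and 63.0 in Nrf2 KO and 52.6 to 103 in DKO libraries against 181 to 218 in control and 199 and 207 in p65 KO. Gclc, an Nrf2 target of glutathione synthesis, did not separate the Nrf2 labels, since it was low in p65 KO (10823 and 7563) as well as in Nrf2 KO (10523 and 9409), against 18703 to 27771 in control and 4600 to 5326 in DKO. Saa3, an acute-phase gene controlled by NF-κB, was at 19.3 and 17.96 in p65 KO and 14.9 to 32.6 in DKO libraries against 92.4 to 229.7 in control. Hepatocyte markers dominated every library.

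Markers of Kupffer, endothelial, and stellate cells were higher in p65 KO, and their part in the results below was not tested. All 12 Kupffer cell markers passed the test as higher in p65 KO than in control, beside 14.9% of all genes. Their summed count was 4516 and 6190 in p65 KO against 368 to 957 in control, 254 and 814 in Nrf2 KO, and 1715 to 2905 in DKO libraries. All 8 markers of sinusoidal endothelial cells passed as well (4052 and 5340 in p65 KO, 756 to 1523 in control, 1010 and 1799 in Nrf2 KO, and 2080 to 2903 in DKO), as did the 7 tested of 8 stellate cell markers (1753 and 1794, 161 to 371, 166 and 273, and 296 to 822). In DKO against control 6 of 12 Kupffer, 2 of 8 endothelial, and 1 of 7 stellate cell markers passed as higher, beside 5.45% of all genes. Against p65 KO, the markers that passed in DKO were 1, 0, and 2, all lower, beside 4.11%. In that comparison 11, 8, and 7 of them were lower in DKO with no overlap of libraries, beside 38.6% of all genes without overlap. In p65 KO against control 3 of 7 tested markers of monocytes and dendritic cells and 1 of 4 of neutrophils passed, beside 14.9% of all genes. The monocyte and dendritic cell sum was 466 and 579 in p65 KO against 66.3 to 148.5 in control, where Flt3 and Xcr1 were at 0. The neutrophil marker Ly6g was at 0 in every library. No marker of cholangiocytes, B cells, T and NK cells, or erythroid cells passed in p65 KO against control. The B cell sum was 53.8 and 75.6 in p65 KO against 86.1 to 392 in control, and the erythroid sum was 164 to 1141 in DKO against 51.9 to 182 in control and 35.9 and 94.5 in p65 KO. The sum of T and NK cell markers was 72.1 to 158 in DKO, where 1 of 5 tested markers passed, against 14.0 to 36.4 in control. It was 62.3 and 61.4 in Nrf2 KO and 35.6 and 37.8 in p65 KO. In bulk RNA, fewer cells of a type and less RNA per cell cannot be told apart.

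Of the 10 genes, Bcl2l1 was the only one that passed the test in any comparison between genotypes. edgeR's quasi-likelihood test was used throughout, and a gene passed when its p, adjusted by the Benjamini-Hochberg method over the 13641 genes, was at most 0.05. Bcl2l1 was higher in p65 KO than in control, and it was lower in DKO than in p65 KO. The count in p65 KO against control was thus 1 of 10, beside 14.9% of all genes tested, and the count in DKO against p65 KO was 1 of 10, beside 4.11% of all genes. A single call among 10 genes says nothing about the genes as a group. Both differences were smaller than 1 on the log2 scale, the minimum that the study set in addition. The libraries did not overlap for 5 of 10 members in p65 KO against control (beside 50% of all genes), 4 of 10 in DKO against p65 KO (38.6%), 4 of 10 in Nrf2 KO against control (28.5%), 3 of 10 in DKO against control (26.5%), and 1 of 10 in DKO against Nrf2 KO (32.2%), so that such a gap was common in all comparisons.

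No member passed in the remaining comparisons. In Nrf2 KO against control the count was 0 of 10, beside 0.726% of all genes. An unadjusted p under 0.05 was found for 1 member, beside 1279 of 13641 genes. In DKO against control the count was 0 of 10, beside 5.45%, with 3 members under that p, beside 3073 genes. In DKO against Nrf2 KO it was 0 of 10, beside 0.513%, with no member under that p, beside 1961 genes. DESeq2 and limma called no member in these comparisons either. The interaction is the difference of DKO from p65 KO minus that of Nrf2 KO from control. It was past the threshold for 0 of 10 members, beside 0.469% of all genes. An unadjusted p under 0.05 was found for 1 member, beside 1888 of 13641 genes. DESeq2 called that member, Bcl2l1, and limma called none.

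**Figure D1:**
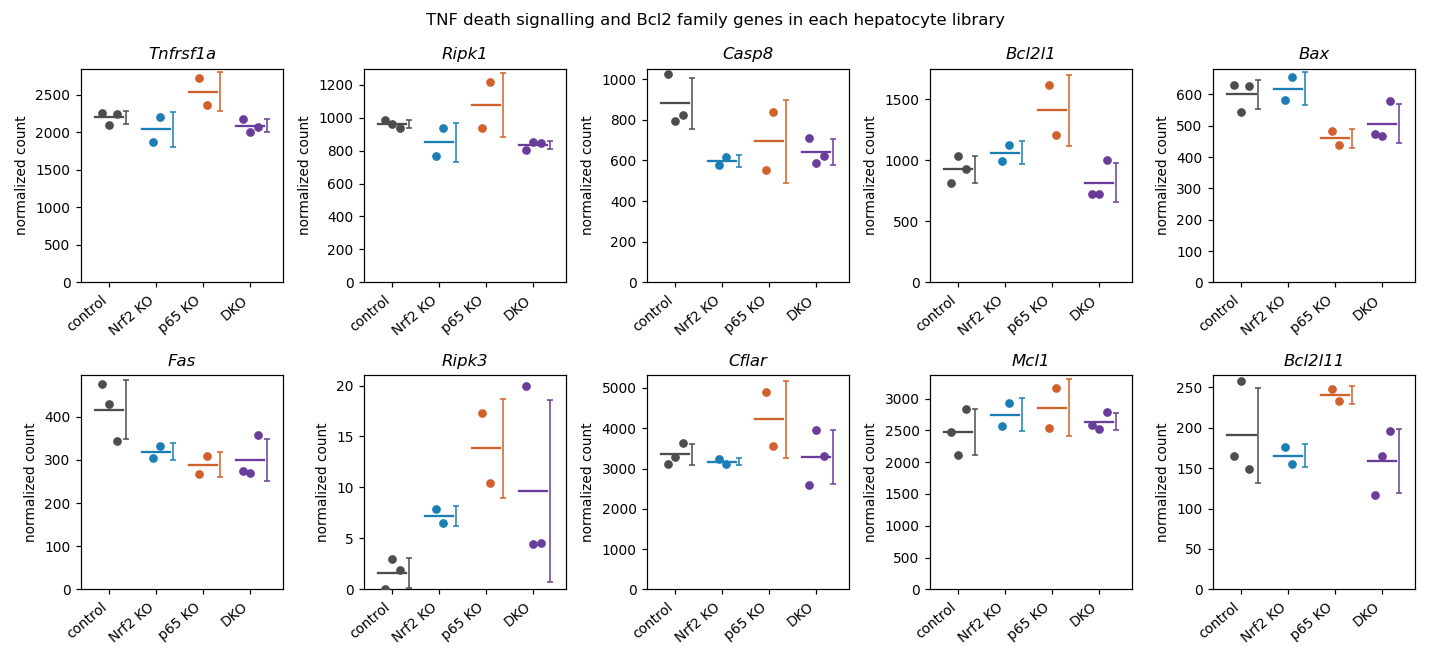
Normalized counts (vertical axes, linear and starting at 0) of the 10 genes in each library of the 4 genotypes, with 1 dot per mouse, a horizontal line at the group mean, and a bar of 1 SD beside it that is not drawn below 0. Both p65 KO dots of Bcl2l1, at 1615 and 1206, lie above all dots of the other genotypes, whereas the dots of Mcl1 overlap between all genotypes.

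Promoters were read from the GRCm39 genome, from 250 bases before to 50 after the start of each canonical transcript, because p65 binds DNA. The search was for the κB letters, which are GGG, any 3 bases, and TTCC, and for those of the antioxidant response element bound by Nrf2, which are TGAC, any 3 bases, and GC, on both strands. The κB letters were found in 2 of 10 members, Cflar and Mcl1, and in 5.81% of 21453 promoters, and the antioxidant letters in 0 of 10 members and in 12.5% of promoters. Of the other pathway genes, 9 of 59 held the κB letters, among them Chuk, and 9 of 59 the antioxidant letters. A match is a description of the letters and not of binding. The sequences before the canonical transcript starts of Cflar (chr1:58752095-58752342, plus strand), Mcl1 (chr3:95565776-95566025, plus strand), and Bcl2l1 (chr2:152673314-152673407, minus strand) are shown for the 2 matches and for the member that passed the test. They are the longest stretch free of annotated exons within the 250 bases before the start, and capitals mark the κB letters, which occur at positions -77 to -68 in Cflar and, on the reverse strand, at -22 to -13 in Mcl1. The stretches of Cflar and Bcl2l1 lie inside the annotated genes, which begin farther upstream than the canonical transcripts. Those earlier starts were not searched.
Cflar: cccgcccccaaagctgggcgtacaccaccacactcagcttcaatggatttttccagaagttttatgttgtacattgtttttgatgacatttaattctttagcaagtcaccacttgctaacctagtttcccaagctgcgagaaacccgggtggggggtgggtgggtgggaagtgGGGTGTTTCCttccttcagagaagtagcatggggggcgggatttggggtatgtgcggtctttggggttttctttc
Mcl1: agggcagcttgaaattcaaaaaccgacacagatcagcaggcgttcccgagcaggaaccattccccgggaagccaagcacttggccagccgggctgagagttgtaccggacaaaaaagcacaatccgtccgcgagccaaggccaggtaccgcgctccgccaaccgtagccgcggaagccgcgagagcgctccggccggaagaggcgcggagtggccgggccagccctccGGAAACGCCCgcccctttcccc
Bcl2l1: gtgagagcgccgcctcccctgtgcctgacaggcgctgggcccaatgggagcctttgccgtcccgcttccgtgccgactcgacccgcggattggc

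Neither Cflar nor Mcl1, which hold the κB letters at their start, passed the test in any comparison. Bcl2l1, which passed, held neither set of letters in this window. The search read only a fixed form of the letters around each canonical start, which for Cflar and Bcl2l1 lies inside the annotated gene. Direct control of these genes by either transcription factor was not tested.

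Neither receptor gene passed the test. Tnfrsf1a encodes the main receptor of TNF on hepatocytes and lies on chromosome 6 (chr6:125325566-125339632, GRCm39, plus strand). It was at 2261, 2100, and 2238 in the control libraries, 1871 and 2204 in Nrf2 KO, 2724 and 2361 in p65 KO, and 2183, 2005, and 2075 in DKO. Both p65 KO libraries were above every other library, but by a margin that did not pass the test (log2 fold change against control 0.21, 95% interval -0.04 to 0.45, adjusted p = 0.226). The intervals against control were -0.36 to 0.14 in Nrf2 KO and -0.30 to 0.15 in DKO. With libraries scaled to equal totals, Tnfrsf1a was called in p65 KO against control (adjusted p = 0.0313) and in DKO against p65 KO (adjusted p = 0.0102).

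Fas encodes the receptor of Fas ligand, which recruits caspase-8, and lies on chromosome 19 (chr19:34268001-34305173, plus strand). It was at 477, 430, and 344 in control, 305 and 333 in Nrf2 KO, 268 and 310.0 in p65 KO, and 275, 269, and 357 in DKO. Every library of the single knockouts was below every control library, while 1 DKO library fell within the control range. The log2 fold change was -0.53 in p65 KO (SE 0.18, interval -0.93 to -0.12, adjusted p = 0.0746), -0.47 in DKO (SE 0.16, interval -0.83 to -0.12, adjusted p = 0.115), and -0.38 in Nrf2 KO (SE 0.18, interval -0.78 to 0.01, adjusted p = 0.562). These comparisons share the 3 control libraries, which spread as widely as the genotypes differed. Without control 3, the lowest of them, Fas passed in p65 KO (adjusted p = 0.049).

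The 2 kinases had very different levels. Ripk1 is the scaffold and kinase on which the TNF signal turns between survival and death (chr13:34186141-34221130, plus strand). Its counts were 984, 959, and 938 in control, 766 and 934 in Nrf2 KO, 939 and 1214 in p65 KO, and 805, 851, and 844 in DKO. All 3 DKO libraries lay below all control libraries, with a log2 fold change of -0.20 (interval -0.47 to 0.06, adjusted p = 0.337). Between DKO and p65 KO it was -0.37 (interval -0.66 to -0.08, adjusted p = 0.139), a difference that passed with libraries scaled to equal totals (adjusted p = 0.0156).

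Ripk3, the kinase that phosphorylates Mlkl in necroptosis (chr14:56022452-56026324, minus strand), was at the lower limit of detection. Hepatocytes are known to hold little Ripk3, whereas macrophages express it. Normalized counts were 0, 2.95, and 1.87 in control, 7.91 and 6.47 in Nrf2 KO, 17.3 and 10.4 in p65 KO, and 19.99, 4.49, and 4.58 in DKO. No library of a knockout overlapped with control, although DKO 1 stood far above the other two DKO libraries. The estimated counts summed to 5 over the control libraries, 16 over Nrf2 KO, 28 over p65 KO, and 27 over DKO, and relative to library size the p65 KO group was 8.21 times the control group, with an exact 95% interval for counting error alone of 3.13 to 27.2.

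The test that includes the spread between mice did not call Ripk3 in p65 KO (log2 fold change 2.97, SE 0.99, adjusted p = 0.0655). The call was made by DESeq2 (adjusted p = 0.0419), by limma (adjusted p = 0.0396), and by edgeR without DKO 1 (adjusted p = 0.0434). In DKO the log2 fold change was 2.48 (interval 0.39 to 4.56, adjusted p = 0.155) and in Nrf2 KO 2.04 (interval -0.22 to 4.30, adjusted p = 0.608). The Kupffer cell sum was raised in p65 KO and DKO and lay at 254 and 814 in the Nrf2 KO libraries, within or below the control range. The monocyte and dendritic cell sum, at 129.5 and 57.4 in Nrf2 KO, overlapped with control (66.3 to 148.5). The T and NK cell sum was 62.3 and 61.4 in Nrf2 KO against 14.0 to 36.4 in control. What part any of these cells had in the Ripk3 counts was not tested. Mlkl, the executor of necroptosis, did not pass in any comparison.

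**Figure D2:**
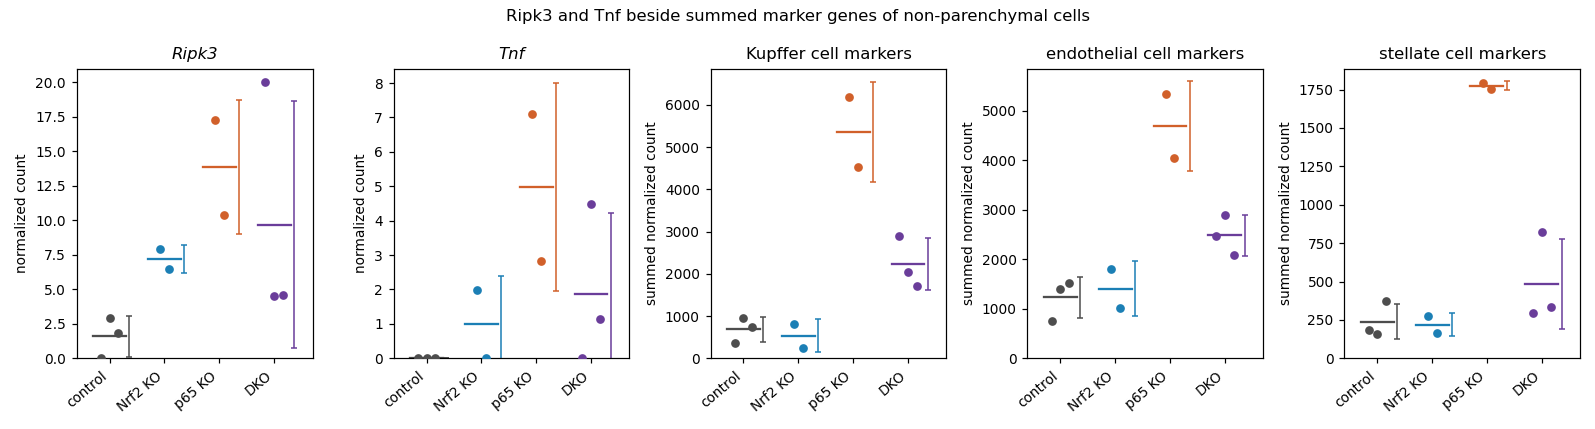
Normalized counts of Ripk3 and Tnf and summed normalized counts of the marker genes of Kupffer cells, sinusoidal endothelial cells, and stellate cells (vertical axes, linear, each with its own range) in each library, with group means and bars of 1 SD that are not drawn below 0. The marker sums were highest in both p65 KO libraries, and Ripk3 reached its highest count, 19.99, in 1 DKO library.

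Casp8 and Cflar are neighbors on chromosome 1, with 36.3 kb between them. Casp8 encodes the initiator protease of the death receptors (chr1:58834375-58886665, plus strand). It was at 1025, 794, and 823 in control, 576 and 618 in Nrf2 KO, 551 and 839 in p65 KO, and 712, 589, and 622 in DKO. All Nrf2 KO and DKO libraries were below all control libraries, and the p65 KO libraries spanned both ranges. The log2 fold change was -0.56 in Nrf2 KO (SE 0.18, interval -0.97 to -0.15, adjusted p = 0.317), -0.46 in DKO (interval -0.82 to -0.10, adjusted p = 0.133), and -0.34 in p65 KO (interval -0.74 to 0.06, adjusted p = 0.231). None passed.

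Cflar encodes cFLIP, which binds the caspase-8 complex and blocks it, and is a textbook target of NF-κB (chr1:58750321-58798047, plus strand). It was at 3121, 3294, and 3638 in control, 3232 and 3107 in Nrf2 KO, 4902 and 3550 in p65 KO, and 2599, 3950, and 3308 in DKO. The libraries overlapped between control and each knockout. The log2 fold change against control was 0.33 in p65 KO (interval -0.06 to 0.73, adjusted p = 0.224), -0.03 in DKO (interval -0.38 to 0.32), and -0.08 in Nrf2 KO (interval -0.48 to 0.32).

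The survival genes of the Bcl2 family included the member that passed. Bcl2l1 encodes Bcl-xL, which holds Bax and Bak inactive and is needed for the survival of resting hepatocytes (chr2:152622582-152673655, minus strand). It was at 812, 1034, and 930.2 in control, 998 and 1128 in Nrf2 KO, 1615 and 1206 in p65 KO, and 727, 725, and 1000.1 in DKO. Both p65 KO libraries exceeded all the others, 1 of them by a wide margin, and the DKO libraries overlapped with control. The difference between p65 KO and control was 0.61 on the log2 scale (SE 0.18, interval 0.22 to 1.00, 1.52-fold, adjusted p = 0.0434), and that between DKO and p65 KO was -0.79 (SE 0.18, interval -1.18 to -0.39, adjusted p = 0.0372).

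These differences were not stable against the removal of single mice. Without p65 KO 1 the log2 fold change of Bcl2l1 against control was 0.38 (adjusted p = 0.334), and it also missed the threshold without control 1 (adjusted p = 0.133), control 2 (0.0549), control 3 (0.0891), Nrf2 KO 1 (0.0588), or Nrf2 KO 2 (0.0589). The difference between DKO and p65 KO was -0.56 without p65 KO 1 (adjusted p = 0.236), and the adjusted p was 0.114 when these genotypes alone were fitted. It missed the threshold also without p65 KO 2, DKO 1, DKO 2, control 3, or either Nrf2 KO library. DESeq2 and limma called both differences. The remaining differences of Bcl2l1 were -0.18 in DKO against control (interval -0.54 to 0.18, adjusted p = 0.545), 0.20 in Nrf2 KO against control (interval -0.20 to 0.60, adjusted p = 0.824), and -0.38 in DKO against Nrf2 KO (interval -0.78 to 0.02, adjusted p = 0.361). The interaction was -0.99 (SE 0.25, interval -1.54 to -0.43, adjusted p = 0.131, and 0.0203 by DESeq2).

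Mcl1 encodes a survival protein with rapid turnover on which hepatocytes also depend (chr3:95566026-95570487, plus strand). It was at 2476, 2117, and 2829 in control, 2563 and 2933 in Nrf2 KO, 2541 and 3174 in p65 KO, and 2590, 2528, and 2784 in DKO. The genotypes overlapped in all comparisons with control. The largest difference from control was 0.21 on the log2 scale, in p65 KO (interval -0.11 to 0.52, adjusted p = 0.347), and the interval was -0.16 to 0.47 in Nrf2 KO and -0.19 to 0.37 in DKO.

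The death genes of the family did not pass. Bax encodes the pore former of the outer mitochondrial membrane (chr7:45111015-45116325, minus strand). It was at 628, 545, and 626 in control, 580 and 655 in Nrf2 KO, 482 and 439 in p65 KO, and 473, 467, and 578 in DKO. Both p65 KO libraries were below all control and Nrf2 KO libraries, with a log2 fold change from control of -0.38 (SE 0.14, interval -0.69 to -0.08, adjusted p = 0.0871), and the DKO libraries overlapped with control (-0.25, interval -0.52 to 0.03, adjusted p = 0.267).

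Bcl2l11 encodes Bim, a BH3-only protein that binds Bcl-xL and Mcl-1 (chr2:127967958-128004476, plus strand). It was at 164.5, 257.6, and 149.4 in control, 176 and 155 in Nrf2 KO, 248 and 232.5 in p65 KO, and 117, 165, and 196 in DKO. The p65 KO libraries overlapped with control because control 2 was the highest library of all. Against control the log2 fold change was 0.33 in p65 KO (interval -0.25 to 0.92, adjusted p = 0.417), -0.26 in DKO (interval -0.79 to 0.27), and -0.20 in Nrf2 KO (interval -0.80 to 0.39).

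**Figure D3:**
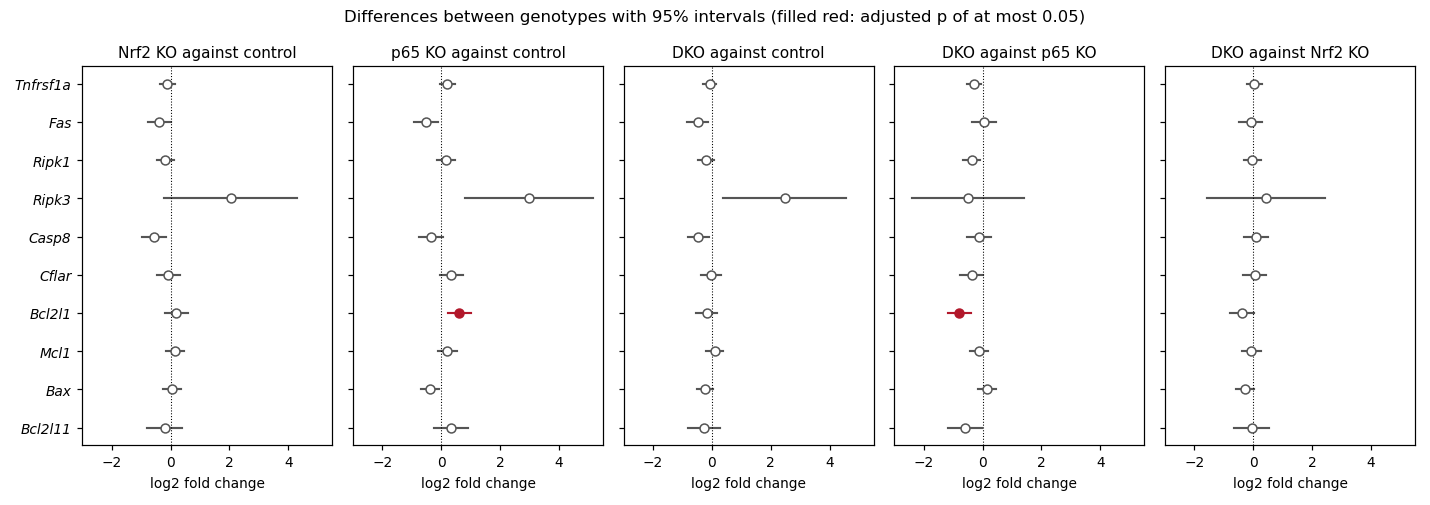
Log2 fold change (horizontal axes) of the 10 genes in 5 comparisons between genotypes, with bars for the 95% interval and filled red symbols for an adjusted p of at most 0.05. Only Bcl2l1 is filled, at 0.61 in p65 KO against control and -0.79 in DKO against p65 KO, and the intervals of Ripk3 are several times wider than those of the other genes.

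The balance of survival and death genes was examined within each library, as the ratio of 2 counts, which does not depend on the scaling of libraries. The pairs were chosen after their values had been seen and carry no test. There were 1.29 to 1.90 Bcl2l1 counts per Bax count in control, 1.72 in both Nrf2 KO libraries, 2.75 and 3.35 in p65 KO, and 1.54 to 1.73 in DKO. Mcl1 counts per Bax count were 3.89 to 4.52 in control, 4.42 and 4.48 in Nrf2 KO, 5.28 and 7.24 in p65 KO, and 4.82 to 5.47 in DKO. Both ratios to Bax were highest in the p65 KO libraries, except that the lower p65 KO value for Mcl1 fell within the DKO range. The ratio of Cflar to Casp8 overlapped between p65 KO and each other genotype, with 3.05 to 4.42 in control, 5.03 and 5.61 in Nrf2 KO, 4.23 and 8.90 in p65 KO, and 3.65 to 6.70 in DKO. The ratios to Bcl2l11 overlapped between p65 KO and control. Bcl2l1 counts per Bcl2l11 count were 4.01 to 6.22 in control, 5.67 and 7.27 in Nrf2 KO, 5.19 and 6.52 in p65 KO, and 4.39 to 6.23 in DKO, and Mcl1 counts per Bcl2l11 count were 8.22 to 18.9 in control, 14.6 and 18.9 in Nrf2 KO, 10.2 and 13.7 in p65 KO, and 14.2 to 22.2 in DKO.

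**Figure D4:**
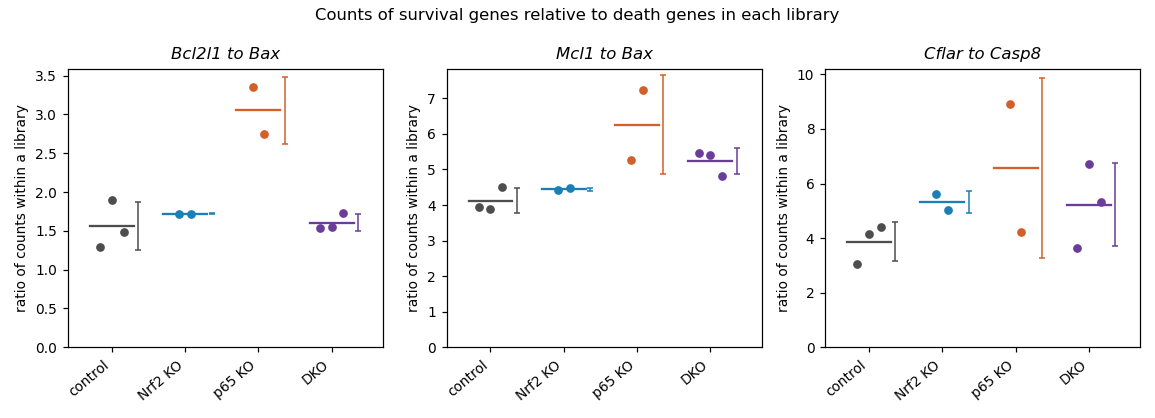
Ratio of the counts of 2 genes within a library (vertical axes, linear and starting at 0) for Bcl2l1 to Bax, Mcl1 to Bax, and Cflar to Casp8, with 1 dot per mouse, a line at the group mean, and a bar of 1 SD. Bcl2l1 to Bax lies at 2.75 and 3.35 in p65 KO and at or below 1.90 in every other library, whereas Cflar to Casp8 overlaps between p65 KO and the other genotypes.

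Levels were compared between genes per kilobase of the canonical transcript. In control hepatocytes Tnfrsf1a had the highest level, with 1011 normalized counts per kilobase (SD 39.8, n = 3). Mcl1 (709, SD 102) and Bax (614, SD 48.7) followed and overlapped with each other, and Cflar was below both (478, SD 37.5). Casp8 (321, SD 45.9), Bcl2l1 (283, SD 34), and Fas (280.1, SD 45.4) could not be ordered beyond their spread. Ripk1 was at 143 (SD 3.44) and Bcl2l11 at 37.8 (SD 11.6), and Ripk3 came last, at 0.848 (SD 0.788). In p65 KO libraries Cflar, at 506 and 699 per kilobase, was above Bax, at 449 and 493, the reverse of their order in control. Neither gene passed the test in p65 KO against control. The order rests on dividing the counts of the whole gene by 1 transcript length, 7017 bases for Cflar and 976 for Bax.

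The other genes of the pathway were taken from a list of 59 ligands, receptors, adaptors, kinases, caspases, and Bcl2 family genes, of which 55 could be tested. In p65 KO against control 6 were higher and 3 lower, 9 of 55 beside 14.9% of all genes, and their median log2 fold change was 0.16 beside 0.0009 over all genes. In DKO against control 1 was higher and 2 were lower, beside 5.45%, with a median of 0.14 beside 0.025 over all genes. Against p65 KO, 1 was lower in DKO, beside 4.11%, with a median of -0.14 beside 0.0003. The medians include genes with few counts, such as Tnf. None of the 55 passed in Nrf2 KO against control (2 with an unadjusted p under 0.05), in DKO against Nrf2 KO (10), or in the interaction (10). Of all 13641 genes, 1279, 1961, and 1888 were under that p. DESeq2 called 1, 2, and 0 in these comparisons, and limma called none. The count of 9 in p65 KO was 2 without p65 KO 1, when only Bok and Bik remained, 4 without p65 KO 2, and 5 without control 1. The 3 genes of DKO against control were 0 without DKO 1, control 1, or control 2, and when only these genotypes were fitted, and 1 without DKO 2.

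Among the ligands, Tnf itself was nearly absent from the libraries, at 0 in all control libraries, 1.98 and 0 in Nrf2 KO, 7.11 and 2.84 in p65 KO, and 0, 4.49, and 1.14 in DKO, and did not pass. Fasl and Lta were below the filter. Tnfsf10, which encodes the death ligand TRAIL, was at 24.3, 48.2, and 59.8 in control, 49.4 and 77.6 in Nrf2 KO, 139.2 and 139.9 in p65 KO, and 64.2, 84.2, and 62.9 in DKO. It rose in p65 KO (log2 fold change 1.65, SE 0.36, adjusted p = 0.0148) but missed the threshold without either p65 KO library. Tnfsf12, which encodes the cytokine TWEAK, was at 165.6, 181, and 215 in control and between 275 and 407 in every knockout library. It rose in p65 KO (0.81, adjusted p = 0.0231) and in DKO (0.83, adjusted p = 0.026), and each call was lost in 5 of 19 alternative analyses. The Nrf2 KO libraries, at 278 and 362, also lay above control, a difference that DESeq2 called and edgeR did not.

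Of the 6 other receptors only Tnfrsf21, the gene of death receptor 6, passed, and only in p65 KO against control (1 of 6, beside 14.9% of all genes). It was at 2.21, 10.8, and 4.67 in control, 4.94 and 1.62 in Nrf2 KO, 59.9 and 47.3 in p65 KO, and 21.0, 26.9, and 12.6 in DKO. It rose in p65 KO by 3.14 on the log2 scale (SE 0.65, adjusted p = 0.0125), the largest change among the pathway genes that passed, and the call was lost without p65 KO 1.

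In p65 KO against control 1 of 16 adaptors and ubiquitin enzymes and 1 of 6 kinases of the receptor complex passed, beside 14.9% of all genes. In DKO against control the counts were 0 of 16 and 1 of 6, beside 5.45%. Birc2 encodes cIAP1, which ubiquitinates Ripk1 and keeps it on the survival arm. It was at 412, 416, and 456 in control and at 629 and 661 in p65 KO, where it rose (0.59, adjusted p = 0.0227), against 413, 561, and 481 in DKO. The call was lost without either p65 KO library, control 1, or control 2, and with the replicate number as a block. Tab2, an adaptor of the kinase Tak1, was at 2751, 2938, and 2522 in control and 2861 and 2469 in Nrf2 KO. All DKO libraries, at 2117.5, 2204, and 1706, lay below control, but Tab2 did not pass there. Tab2 fell in p65 KO to 1828 and 1729 (-0.62, adjusted p = 0.0146). With libraries scaled to equal totals the difference was -0.45 and the call was lost (adjusted p = 0.0877), as it was without p65 KO 1 (0.0787) or p65 KO 2 (0.0702). Chuk, which encodes IKKα, was at 4580, 4634, and 4079 in control, 4144 and 4195 in Nrf2 KO, and 3600 and 3884 in p65 KO. Both p65 KO libraries lay below control, but Chuk passed neither in p65 KO against control nor in DKO against p65 KO. In DKO it fell to 3388, 3411, and 3274 (-0.40 against control, adjusted p = 0.0293). It lost the call in 8 of 19 alternative analyses, among them each that left out a DKO library (adjusted p 0.0622 to 0.071) and the fit of these genotypes alone (0.063).

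Zbp1 encodes a nucleic acid sensor that can activate Ripk3. Its counts were 240, 203, and 197 in control and 379 and 337 in p65 KO, where it passed only just (0.75, adjusted p = 0.0495) and lost the call in 10 of 19 alternative analyses. Casp9, the initiator caspase of the mitochondrial route, was at 984, 974, and 786 in control, 832 and 883 in Nrf2 KO, 933 and 851 in p65 KO, and 471, 518, and 675 in DKO. The DKO libraries were below all others, and Casp9 fell both against control (-0.72, SE 0.15, adjusted p = 0.0208) and against p65 KO (-0.68, SE 0.16, adjusted p = 0.0411). The call against control was lost in 5 of 19 alternative analyses (adjusted p up to 0.0799) and that against p65 KO in 10 of 19, among them the fit of these genotypes alone (0.122) and those without p65 KO 1 (0.199) or p65 KO 2 (0.122). Its effect was not called in either single knockout, and its interaction did not pass.

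Of the 13 remaining Bcl2 family genes that could be tested, 3 passed in p65 KO against control, beside 14.9% of all genes, 2 as lower and 1 as higher. Bok, a relative of Bax and Bak, was at 267, 206, and 264 in control, 215 and 189.9 in Nrf2 KO, 82.3 and 61.4 in p65 KO, and 163, 146, and 75.5 in DKO. It fell in p65 KO by 1.77 on the log2 scale (SE 0.31, adjusted p = 0.00633). Bik, a BH3-only gene, was at 203, 176, and 247 in control, 177 and 188 in Nrf2 KO, 95.5 and 81.3 in p65 KO, and 159, 149, and 117 in DKO, and fell by 1.24 (SE 0.22, adjusted p = 0.00646). Bok and Bik kept their calls in all 19 alternative analyses. Bid, the BH3-only protein cleaved by caspase-8, went the other way, from 343, 343, and 422 in control to 553 and 614 in p65 KO (0.66, adjusted p = 0.0235), with 362, 490, and 381 in DKO, and lost its call without either p65 KO library, control 1, or control 2.

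**Figure D5:**
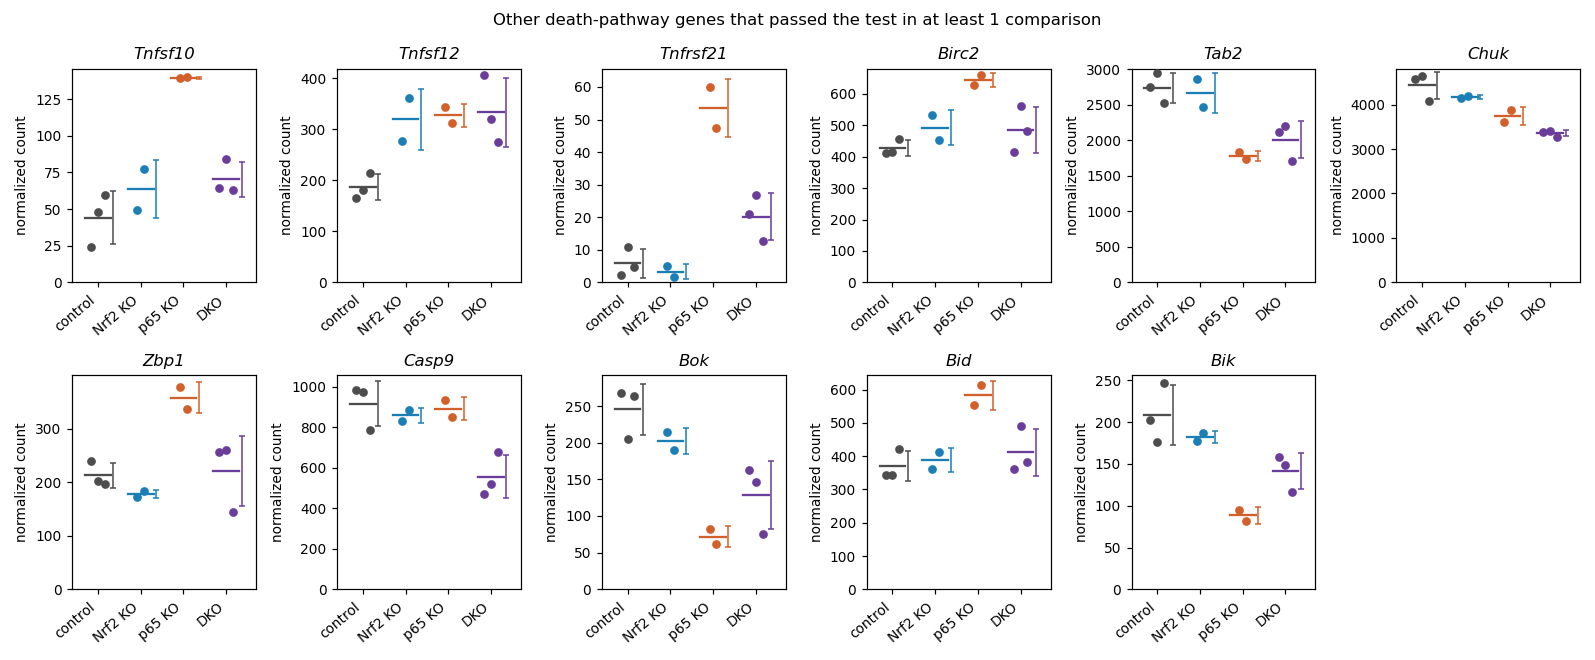
Normalized counts (vertical axes, linear and starting at 0) of the 11 other pathway genes that passed the test in at least 1 comparison, in each library, with group means and bars of 1 SD. In p65 KO libraries Tnfsf10, Tnfsf12, Tnfrsf21, Birc2, Zbp1, and Bid are higher and Bok, Bik, and Tab2 lower than in control, and Casp9 is lowest in the 3 DKO libraries.

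The 3 genes whose log2 normalized counts correlated most with those of Bcl2l1 over the 10 libraries, among the 10184 genes whose mean normalized count reached 50, were Dvl2 (Pearson's r = 0.952), Stt3a (0.946), and Wdr7 (0.931). The points share the library scaling and the contrast between genotypes, so that r is given as a description. Dvl2, for example, was at 162 and 192 in p65 KO, 80.6 to 127 in control, 99.9 and 118 in Nrf2 KO, and 68.4 to 99.5 in DKO.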

How the data were processed

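Poly-A RNA was sequenced as stranded single-end reads. The authors quantified the reads with Salmon 1.10.3 against GRCm39 and GENCODE M33, with sequence-bias correction, and deposited estimated counts per gene as whole numbers. Although the table carries the word normalized in its name, library totals ranged from 33707165 to 49897382, and the values were treated as estimated counts. All 10 columns were assigned to mice by name.

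edgeR 4.0.16 (R 4.3.3) was used with TMM scaling, removal of genes whose counts over all libraries summed to less than 10, and all 4 genotypes in 1 fit, since 2 genotypes have 2 mice. Intervals and SE are from this fit. It was tested on simulated data, in which the changes were larger than those of Bcl2l1 and were placed only in genes with many counts. That test therefore does not cover smaller differences or genes with few counts. Replicates differed by more than sampling noise (chi-square per degree of freedom 40.1 to 185). The p-values weigh each difference against the spread between mice of the same genotype. That spread was estimated over all 4 genotypes together and in part shared across genes. Depth limits only Ripk3, Tnf, and other genes with few counts.

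The members and lists were chosen with earlier results of these data known. Named were the members, 6 genes for the label check, Tnf, Fasl, Tnfsf10, all listed pathway genes that passed, and the 3 genes most correlated with Bcl2l1. Positions came from GENCODE M39. Alternatives were DESeq2 1.42.0, limma 3.58.1 with a pseudocount of 1, other scalings and filters, a replicate block, fits of only 2 genotypes, and leaving out each library. GENCODE M33 itself was not used here.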

Additional observations from a re-analysis of the deposited data

How the results depend on the processing

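Of the 15 differences that passed, 2 of members and 13 of other pathway genes, none changed direction in the 19 alternatives and 2 kept their call in all of them. Of the 58 differences of members that did not pass, 6 were called in some alternative and 19 changed sign in some. The number of members called in p65 KO against control, 1, was 2 with DESeq2, with limma, and with equal totals, and ranged from 0 to 2 when single libraries were left out. In DKO against p65 KO it was 3 with equal totals, 0 when only these genotypes were fitted, and 0 to 1 with single libraries left out. DESeq2 called 1 member in the interaction.

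Over all genes, DESeq2 called 320 in Nrf2 KO, 1446 in DKO, 1291 in DKO against p65 KO, 504 in DKO against Nrf2 KO, and 400 in the interaction, where edgeR called 99, 743, 561, 70, and 64. Equal totals gave 1753 in DKO against p65 KO and 140 in the interaction. Fits of only 2 genotypes gave 417 in DKO, 116 in DKO against p65 KO, and 20 in DKO against Nrf2 KO, and without the filter 149 were called in DKO against Nrf2 KO and 143 in the interaction. Leaving out single libraries gave 18 to 119 in Nrf2 KO, 452 to 2139 in p65 KO (2032 with all libraries), 229 to 663 in DKO, 85 to 610 in DKO against p65 KO, 18 to 95 in DKO against Nrf2 KO, and 8 to 127 in the interaction. The lowest p65 KO count was that without p65 KO 1.

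Whether mice with the same replicate number belonged together could not be decided. Of 13 library pairs with the same number, 1 had a correlation over 0.1 (median -0.056) of the deviations from the genotype means. Within Nrf2 KO and within p65 KO these deviations are mirror images, so that the 13 values are not independent. With the replicate block, 0 members were called in p65 KO and 0 in DKO against p65 KO (adjusted p of Bcl2l1 0.0545 and 0.0532), and the calls over all genes were 60 for Nrf2 KO, 1178 for p65 KO, 454 for DKO, 294 in DKO against p65 KO, and 39 in DKO against Nrf2 KO.

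Equal totals moved the median log2 fold change by 0.18 in p65 KO, -0.27 in DKO against p65 KO, and -0.27 in the interaction, and the calls of higher and lower genes from 1109 and 923 to 1632 and 355 in p65 KO, from 356 and 387 to 241 and 639 in DKO, from 280 and 281 to 135 and 1618 in DKO against p65 KO, and from 36 and 28 to 27 and 113 in the interaction. Tnfrsf1a and Ripk1 were called only under this scaling, and Bcl2l1 passed in both of its comparisons under each scaling tried. With 2 or 3 mice per genotype, a difference that did not pass is limited only by its interval. The causes of the changes were not tested.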
